A study of Mus musculus with 4 samples.

Results

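Esm1 and 9 genes of the VEGF, angiopoietin and apelin systems were followed in the injured cortex of mice labelled Ndrg2 knockout and of wild-type mice. The 10 genes were Esm1, Vegfa, Pgf, Kdr, Flt1, Angpt1, Angpt2, Tek, Apln and Aplnr, and every array spot whose RefSeq accession maps to one of these symbols was taken. All 10 had a probe, and together they had 12 of the 39429 probes on the array, with 2 each for Vegfa and Kdr. The set was chosen by measured values of the same comparison: the low ratio of knockout over wild type of Esm1 was the starting point, so the ratios are given here as descriptions, with no p for any of the 10 genes.

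The samples came from the cortex on the injured side, taken 24 h after permanent occlusion of the left middle cerebral artery by electrocoagulation, which is used to model stroke. All mice, of both genotypes, were labelled C57BL/6, were 8 weeks old and had the occlusion. No sham-operated or uninjured cortex was analysed here. Each of 4 2-colour Agilent arrays paired a wild-type sample, dyed with Cy5, with a knockout-labelled sample, dyed with Cy3, giving 4 samples per genotype. Whether each sample was a separate animal is not in the labels, so the spread between samples may in part be technical. Nor did they give the allele of the knockout or say in which cells Ndrg2 was lost.

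VEGF-A, encoded by Vegfa, is released by hypoxic tissue and acts on endothelial cells mainly through the receptor tyrosine kinase VEGFR-2, encoded by Kdr. The receptor encoded by Flt1 binds VEGF-A tightly with weak signalling, so it can act as a decoy, and it is also the receptor of placental growth factor, encoded by Pgf. Angiopoietin-1 from mural cells activates the endothelial receptor encoded by Tek and steadies vessels, whereas angiopoietin-2, made by activated endothelium, mostly opposes it. Esm1 encodes endocan, a proteoglycan secreted by endothelial tip cells, and Apln encodes apelin, a peptide of tip cells that acts on the receptor encoded by Aplnr.

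Promoter sequence was at hand for 7 of the 10 genes, from RefSeq with the build GRCm38.p6. It is shown, 5′ to 3′ on the strand of the gene, for Esm1, Kdr and Apln, genes with a probe whose level in the knockout-labelled samples was low on arrays 1 and 2 and high on arrays 3 and 4, and for the ligand gene Vegfa, which did not vary in that way. Each is the 250 bases just before the annotated start, at chr13:113209409-113209658 (plus strand) for Esm1, chr5:75978456-75978705 (minus strand) for Kdr, chrX:48034854-48035103 (minus strand) for Apln and chr17:46032378-46032627 (minus strand) for 1 start of Vegfa. Capitals mark the letters GCGTG or ACGTG on either strand, which are core letters of the hypoxia response element.
Esm1: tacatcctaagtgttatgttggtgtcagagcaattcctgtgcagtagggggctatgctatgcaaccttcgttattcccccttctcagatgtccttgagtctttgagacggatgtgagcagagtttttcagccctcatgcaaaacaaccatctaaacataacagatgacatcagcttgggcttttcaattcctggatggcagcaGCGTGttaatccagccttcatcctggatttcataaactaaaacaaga
Kdr: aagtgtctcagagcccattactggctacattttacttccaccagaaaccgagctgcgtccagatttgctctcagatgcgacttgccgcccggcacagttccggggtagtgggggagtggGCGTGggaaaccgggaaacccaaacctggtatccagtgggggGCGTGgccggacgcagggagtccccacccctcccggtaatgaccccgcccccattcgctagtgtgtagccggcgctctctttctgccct
Apln: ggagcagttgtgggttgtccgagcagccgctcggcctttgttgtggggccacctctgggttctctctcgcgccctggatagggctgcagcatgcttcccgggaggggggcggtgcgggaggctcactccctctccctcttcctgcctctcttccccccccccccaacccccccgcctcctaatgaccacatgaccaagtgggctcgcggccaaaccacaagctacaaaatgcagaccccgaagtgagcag
Vegfa: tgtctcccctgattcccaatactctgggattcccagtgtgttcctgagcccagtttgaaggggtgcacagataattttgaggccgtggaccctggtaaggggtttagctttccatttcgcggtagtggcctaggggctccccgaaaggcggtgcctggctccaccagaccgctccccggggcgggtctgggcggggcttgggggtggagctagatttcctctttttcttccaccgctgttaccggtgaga
Esm1 held GCGTG once, at position -47 from the start, and Kdr held it at positions -131 and -89. The windows of Apln and of this start of Vegfa held neither motif. The other Vegfa start lies downstream of this one, within the gene. Its window held GCGTG at -218 and CACGT, the reverse complement of ACGTG, at -211. Flt1 and Pgf held CACGC, the reverse complement of GCGTG, at -184 and -124. Of all 32851 promoter windows of this length, 38.6% held at least 1 of these motifs, so a match in such a window is common, and neither a match nor its absence says whether a factor binds there.

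Ratios are log2 of knockout-labelled over wild type after background correction and loess normalization, and a level is the normalized log2 intensity of 1 sample in its own channel. Of 30259 probes kept, 20.9% passed in either direction, 11.7% as lower and 9.29% as higher in the knockout-labelled samples (limma, Benjamini-Hochberg adjusted p under 0.05), and the median ratio of all probes was -0.01. The share of spots well above background was 73.6 to 74.9% for knockout-labelled samples and 76.7 to 79.0% for wild-type ones, with no spot saturated. The dyes were never swapped, so genotype and a dye effect of a single probe cannot be told apart. Across probes, the ratios of arrays 1 and 2 had a correlation of 0.73, those of arrays 3 and 4 of 0.63, and every other pair of arrays 0.41 to 0.47, which is a description. The limma fit took the 4 arrays as independent. Whether their likeness in pairs made its adjusted p too small was not tested. The targeted gene Ndrg2 stood at -0.18 ± 0.05 (SD, n = 4) on its single probe, whose position relative to the deleted part is unknown, so the samples are called knockout-labelled.

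All 12 probes passed the filter on dim signal, and 11 of them were well above background in both channels of all 4 arrays. The exception was Aplnr. Past the threshold as lower were 3 of the 12 probes, those of Esm1 and Angpt1 and 1 of both Vegfa probes, beside 11.7% of all probes (20.9% in either direction), and 0 of 12 were past it as higher, beside 9.29%. Nothing is read from these counts, since the genes were listed with this comparison in view. By mean ratio 9 probes lay below 0 and 3 above, with a median of -0.13. On all 4 arrays 5 of 12 probes were below 0 (23.5% of all probes) and 0 of 12 above it (19.8%). The median over the 12 probes was -0.25 on array 1, -0.21 on array 2, -0.08 on array 3 and -0.05 on array 4.

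**Figure D1:**
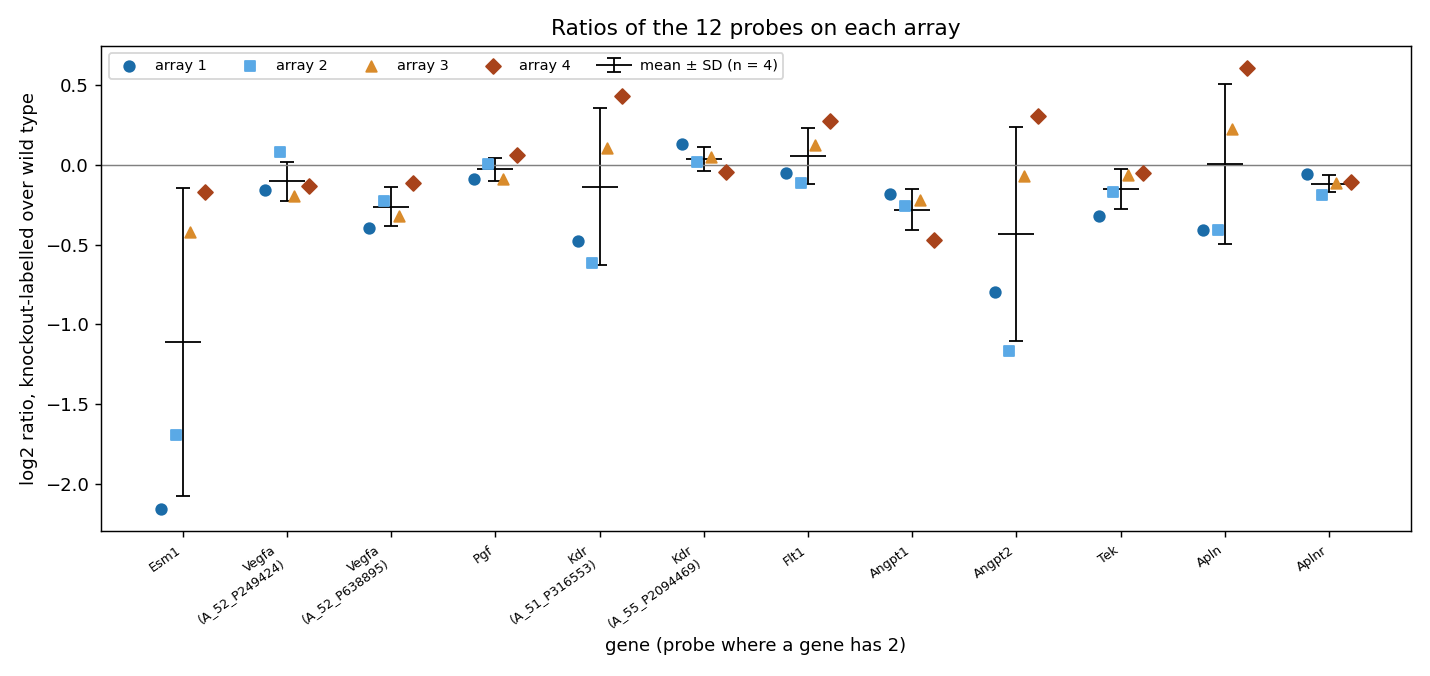
Ratio (log2, knockout-labelled over wild type) for each of the 12 probes, with 1 symbol per array and a bar at the mean ± SD over 4 arrays. Esm1, Angpt2, Apln and 1 Kdr probe spread widely, with arrays 1 and 2 below arrays 3 and 4, while Vegfa, Pgf, Angpt1, Tek, Aplnr and the other Kdr probe lie close together.

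Esm1, the endocan gene, had the widest spread of the 12 probes. Its level in the knockout-labelled samples was 7.75 on array 1, 8.51 on array 2, 10.41 on array 3 and 10.95 on array 4. In the wild-type samples it was 9.91, 10.20, 10.84 and 11.13 in the same order. The knockout-labelled sample was thus the lower on each array, but those on arrays 3 and 4 lay within the wild-type range, so the groups overlapped.

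The ratio of Esm1 was -2.15 on array 1, -1.69 on array 2, -0.42 on array 3 and -0.17 on array 4, with a mean of -1.11 ± 0.96 (SD, n = 4), or 2.16-fold. From the lowest to the highest sample the level moved 9.19-fold among the knockout-labelled samples and 2.33-fold among the wild-type ones. The SD of the ratio exceeded that of 99.96% of all kept probes. The SD over samples was 1.52 in the knockout-labelled channel, above that of 99.98% of probes, and 0.56 in the wild-type channel, above that of 99.86%. The mean ratio was -0.76 without replicate 1, -0.92 without replicate 2, -1.34 without replicate 3 and -1.42 without replicate 4. Of these 4 cases, it stayed past the threshold only without replicate 4. The call was also lost with a normexp offset of 16, at -1.21, and with the scanner software's ratios or the series matrix, at -1.37 in each. In 7 of 14 alternatives Esm1 was past the threshold, but some of these, such as other filters and 1 probe per gene, tested the same ratios again. From the spread of its own ratios alone, the 95% interval of the mean ran from -2.64 to 0.42. The probe was bright enough to be read in every sample. Net of local background its signal was 72 to 1138 units in the knockout-labelled samples (Cy3) and 1498 to 3526 in the wild-type ones (Cy5). These units precede normalization and cannot be compared between the dyes.

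**Figure D2:**
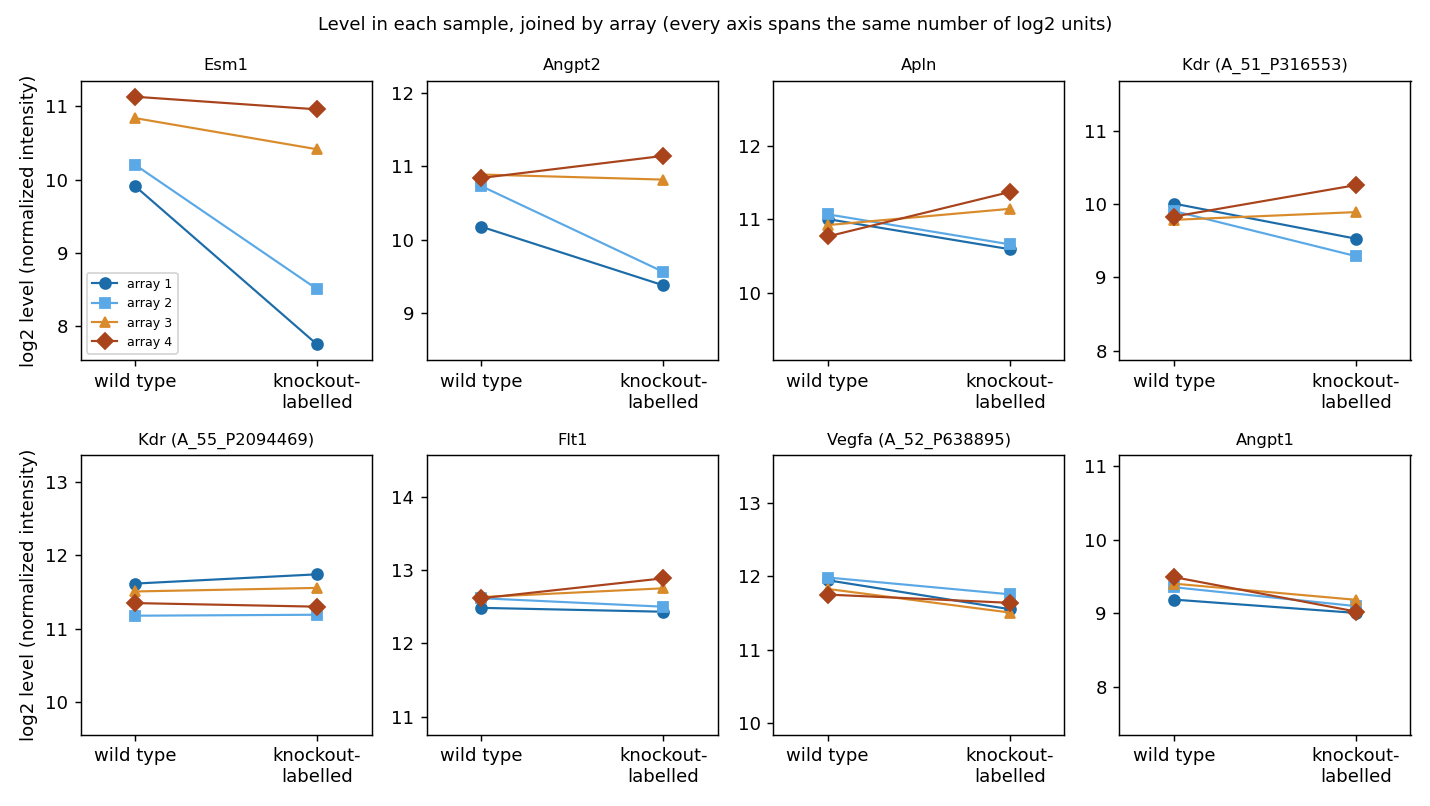
Level of 8 probes (log2 of normalized intensity) in the wild-type and the knockout-labelled sample of each array, joined by a line, with the same span on every vertical axis. Esm1 and Angpt2 are lowest in the knockout-labelled samples of arrays 1 and 2, and Apln and Kdr probe A_51_P316553 lie below their wild-type partners on those arrays and above them on arrays 3 and 4.

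In the angiopoietin system, the knockout-labelled levels of Angpt2 had the same order of arrays as those of Esm1, and those of Angpt1 did not. The level of Angpt2 was 9.38, 9.56, 10.82 and 11.14 in the knockout-labelled samples of arrays 1 to 4 and 10.18, 10.73, 10.89 and 10.84 in the wild-type samples. Its ratios were -0.80, -1.17, -0.07 and 0.30, with a mean of -0.43 ± 0.67 (SD, n = 4) that did not pass. The groups overlapped, and the knockout-labelled sample was the lower on arrays 1 to 3 and the higher on array 4. Among the knockout-labelled samples its level moved 3.39-fold, against 1.64-fold among the wild-type samples.

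Angpt1, the gene of the activating ligand, was lower in every knockout-labelled sample than in any wild-type sample. Its levels were 9.005, 9.10, 9.18 and 9.02 in the knockout-labelled samples and 9.19, 9.36, 9.40 and 9.49 in the wild-type samples. The gap between the groups was narrow, from 9.18 to 9.19. Its ratios were -0.18, -0.26, -0.22 and -0.47, with a mean of -0.28 ± 0.13 (SD, n = 4), or 1.22-fold. It was on array 4, where Esm1 differed least, that Angpt1 differed most. Levels without overlap, in either direction, were found for 2 of the 12 probes, Angpt1 and Aplnr, beside 19.5% of all probes. Nothing is read from this count, and Aplnr passed the filter only through the wild-type channel, where it was higher. Without replicate 2 Angpt1 was no longer past the threshold, with a ratio of -0.29.

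Tek, the gene of the receptor of both angiopoietins, had ratios of -0.32, -0.17, -0.07 and -0.05 and a mean of -0.15 ± 0.12 (SD, n = 4), which did not pass. Its level was 7.96 to 8.31 in the knockout-labelled samples and 8.13 to 8.37 in the wild-type samples. The knockout-labelled sample was the lower on all 4 arrays, yet the groups overlapped.

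Of the VEGF ligands, Vegfa was slightly lower on its brighter probe and Pgf was level. For the brighter Vegfa probe (A_52_P638895, accession NM_001025250) the levels were 11.55, 11.75, 11.50 and 11.64 in the knockout-labelled samples and 11.94, 11.98, 11.82 and 11.75 in the wild-type samples. These groups touched, with the highest knockout-labelled sample just above the lowest wild-type one. The ratios were -0.39, -0.23, -0.32 and -0.11, with a mean of -0.26 ± 0.12 (SD, n = 4), or 1.201-fold. Its call was lost without replicate 1, 2 or 3, at ratios of -0.22, -0.28 and -0.24.

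The other Vegfa probe (A_52_P249424, accession NM_001025257) had ratios of -0.16, 0.08, -0.19 and -0.14 and a mean of -0.10 ± 0.12 (SD, n = 4), which did not pass. Its level stayed within 8.82 to 8.89 in the knockout-labelled samples and 8.81 to 9.02 in the wild-type samples. Both probes therefore had a mean below 0, and they carry accessions of different Vegfa transcripts. Pgf, whose product binds Flt1 and not the Kdr receptor, had ratios of -0.09, 0.00, -0.09 and 0.06 and a mean of -0.03 ± 0.07 (SD, n = 4). The levels of Pgf overlapped, at 7.98 to 8.14 and 8.04 to 8.22.

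The 2 probes of Kdr, the main signalling receptor gene of VEGF-A, gave different patterns. Probe A_51_P316553, printed as 10 spots on each array, had levels of 9.53, 9.29, 9.89 and 10.26 in the knockout-labelled samples and 10.01, 9.90, 9.78 and 9.83 in the wild-type samples. Its ratios were -0.48, -0.61, 0.10 and 0.43, with a mean of -0.14 ± 0.49 (SD, n = 4), so its knockout-labelled samples ended on both sides of a narrow wild-type range. The spots of this probe differed little within an array. Their SD was 0.04 to 0.06, and on array 1 they ran from -0.55 to -0.41, whereas on array 4 they ran from 0.36 to 0.53. The spread between arrays was thus larger than that between spots. The SD over arrays of this probe's ratio was above that of 99.4% of probes.

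Probe A_55_P2094469 carried the same Kdr accession and had ratios of 0.13, 0.01, 0.05 and -0.05, with a mean of 0.03 ± 0.07 (SD, n = 4) that median centring turned to -0.27. On array 1 the probes stood at -0.48 and 0.13, and on array 4 at 0.43 and -0.05, so they went opposite ways on both. Its levels were 11.19 to 11.74 in the knockout-labelled samples and 11.18 to 11.62 in the wild-type samples, and it moved with the array rather than with genotype. Whether both probes measured the same Kdr transcripts was not tested, so no single value is given for this gene.

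**Figure D3:**
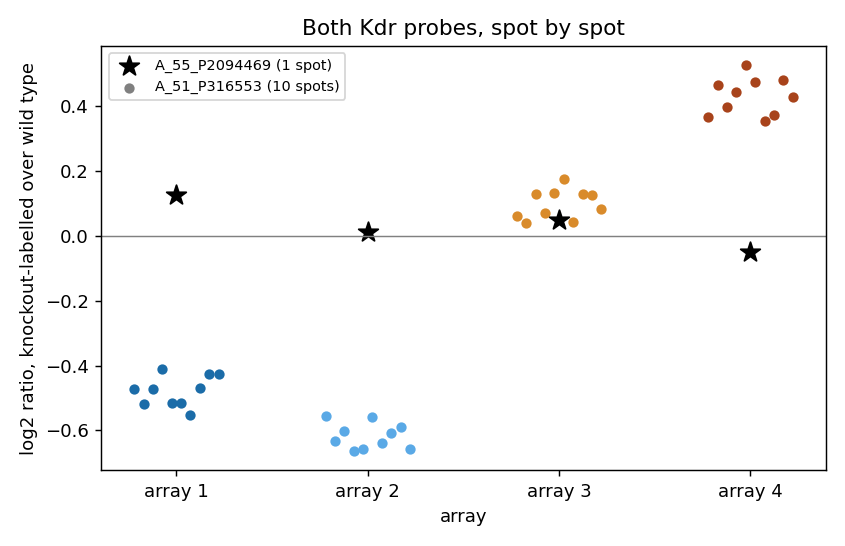
Ratio (log2, knockout-labelled over wild type) for each of the 10 spots of Kdr probe A_51_P316553 (dots) and for the single spot of Kdr probe A_55_P2094469 (stars) on arrays 1 to 4. The 10 spots stay together within an array and shift from a median of -0.47 on array 1 and -0.62 on array 2 to 0.10 and 0.44 on arrays 3 and 4, while the other probe stays between -0.05 and 0.13.

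Flt1, the decoy receptor gene, varied in the same order of arrays as Esm1 in its knockout-labelled levels, at a smaller size, though not in its ratios. Its ratios were -0.05, -0.12, 0.12 and 0.27, with a mean of 0.06 ± 0.17 (SD, n = 4) that did not pass and that median centring turned to -0.30. In the knockout-labelled samples its level was 12.43, 12.50, 12.75 and 12.89, and in the wild-type samples 12.48, 12.62, 12.63 and 12.62. The knockout-labelled samples lay on both sides of the wild-type range.

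In the apelin system, the ligand gene moved among the knockout-labelled samples with a mean ratio at 0. Apln had levels of 10.59, 10.66, 11.14 and 11.37 in the knockout-labelled samples and 11.002, 11.07, 10.92 and 10.77 in the wild-type samples. Its ratios were -0.41, -0.41, 0.22 and 0.60, which gave a mean of 0.00 ± 0.50 (SD, n = 4). On arrays 1 and 2 the knockout-labelled sample was below every wild-type sample, and on arrays 3 and 4 it was above every one.

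Aplnr, the apelin receptor gene, was dim, above only 4.82% of kept probes in mean intensity. It was not well above background in the knockout-labelled channel of any array and was so in the wild-type channel of all 4. Aplnr thus passed the filter only through the channel where it was higher, and nothing is read from the separation of its levels. Its level was 6.43 to 6.49 in the knockout-labelled samples and 6.53 to 6.62 in the wild-type samples, so the groups did not overlap. From means of 6.46 and 6.58, the measured ratio was -0.12, or 1.09-fold lower in the knockout-labelled samples, and it did not pass. The dimmest values passing the background flag, 5.67 to 6.31 by array, lay below these levels. Aplnr therefore kept its measured values, and no bound is given. Median centring turned it to 0.46, past the threshold as higher, and a normexp offset of 16 gave -0.21, past it as lower, so its direction is not settled. A ratio this near to background is open to dye bias.

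The probes whose ratios spread most had levels that were wider among the knockout-labelled samples, always in Cy3, than among the wild-type ones. For Apln the SD of the level was 0.38 there and 0.13 in the wild-type samples, for Angpt2 0.88 and 0.33, for Flt1 0.21 and 0.07, and for Kdr probe A_51_P316553 0.42 and 0.10. Over all kept probes the median SD was 0.09 in the knockout-labelled and 0.08 in the wild-type channel. The opposite held for Angpt1, with 0.08 and 0.13, and for the dimmer Vegfa probe, with 0.03 and 0.09. Kdr probe A_55_P2094469 was wide in both, with 0.25 and 0.19. The wild-type SD of Angpt2 was itself above that of 99.1% of kept probes. With 4 samples per genotype these SDs are imprecise, and the difference in spread was not tested.

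Over the 8 sample levels, Pearson's correlation with Esm1 was 0.97 for Angpt2, 0.75 for Kdr probe A_51_P316553, 0.73 for Flt1 and Tek, 0.68 for Apln and 0.62 for Angpt1. It was 0.57 for Aplnr, 0.40 for Pgf, 0.39 and 0.22 for the Vegfa probes and -0.29 for Kdr probe A_55_P2094469. These values are descriptions without a p, since the 8 levels come in pairs from 4 arrays and the genes were chosen.

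Beyond the 10 genes, those whose 8 levels were most like Esm1 were sought among the 64 named probes whose SD was at least 0.5 times that of Esm1. The 10 genes with the highest Pearson's correlation were S100a8 (0.99), Timp1 (0.99), H2-Ab1 (0.99), Thbs1 (0.98), Tuba1c (0.98), S100a9 (0.98), Wdr92 (0.98), Emp1 (0.97), Sirpb1b (0.97) and Igfbp3 (0.97). Of the 64 probes, 25 reached 0.9 or more, so such likeness was common among probes that varied this much. S100a8 and S100a9 encode the subunits of calprotectin of neutrophils, Timp1 a metalloproteinase inhibitor, H2-Ab1 a chain of MHC class II and Thbs1 the matrix protein thrombospondin 1. Igfbp3, a binding protein of insulin-like growth factors and a tip cell gene, had ratios of -1.20, -1.21, 0.04 and 0.42. S100a8 had ratios of -1.28, -1.18, -0.30 and 0.04, and Timp1 of -1.72, -1.17, -0.05 and -0.06. Another H2-Ab1 probe stood at -0.67, while dimmer probes of Sirpb1b and Wdr92 stood at -0.29 and -0.05.

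**Figure D4:**
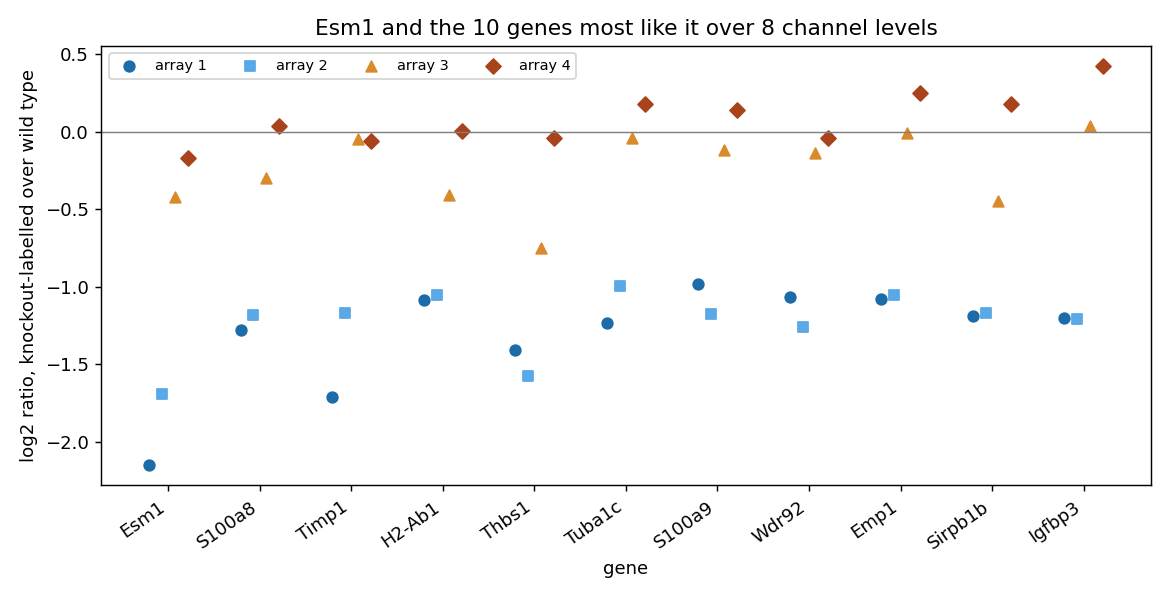
Ratio (log2, knockout-labelled over wild type) on each array for Esm1 and for the 10 genes with the highest Pearson's correlation to it over 8 sample levels. In all of them arrays 1 and 2 lie below arrays 3 and 4, and on array 4 their values lie between -0.17 and 0.42.

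Among other ligands and receptors of these systems, 1 of 12 genes fell (11.7% of all probes), none rose (9.29%) and 11 did not pass. The median of the list was -0.07. Its array medians were -0.17, -0.15, -0.04 and -0.03. The gene that fell was Itga5, the alpha chain of the fibronectin receptor, at -0.48 ± 0.19 (SD, n = 4; limma, adjusted p = 0.00684). Nrp2, a co-receptor of VEGF family ligands, stood at -0.22 ± 0.18 and Svep1, a matrix protein gene, at -0.11 ± 0.08, and neither passed (limma, adjusted p = 0.0579 and 0.139). A second Nrp2 probe stood at -0.40 ± 0.11. Tie1, the receptor gene next to Tek in kind, stood at -0.07 and Nrp1 at -0.08, both chosen after their values were seen.

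Of genes that carry the receptors' signal inside the cell, 2 of 22 fell (11.7% of all probes), 2 rose (9.29%) and the other 18 did not pass. The median of the list was -0.04, with array medians of -0.05, -0.14, 0.03 and 0.05. Pik3ca, the catalytic subunit gene of PI3-kinase, rose by 0.33 ± 0.05 (limma, adjusted p = 0.00389), the endocytic adaptor gene Dab2 fell by 0.46 ± 0.27 (limma, adjusted p = 0.0168) and the kinase gene Akt1 fell by 0.15 ± 0.03 (limma, adjusted p = 0.0357). Akt1 lost its call when any 1 array was left out, and Dab2 in 2 of 4 such cases. Without replicate 1 or 2, 0 genes fell and 1 rose.

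Tip cell and sprouting genes were listed without the 10 genes above. Of these, 3 of 23 fell (11.7% of all probes), 1 rose (9.29%) and the other 19 did not pass, and the median of the list was -0.15. The adhesion gene Mcam fell by 0.43 ± 0.10 (limma, adjusted p = 0.0032), though a dimmer probe of it stood at -0.13. The basement membrane gene Nid1 fell by 0.48 ± 0.32 (limma, adjusted p = 0.0235), with dimmer probes at -0.08 and -0.14. Plxnd1, a semaphorin receptor gene, rose by 0.52 ± 0.36 (limma, adjusted p = 0.0246), with another probe at 0.19. On array 1 the list's median was -0.33, on array 2 -0.21, on array 3 0.00 and on array 4 0.05, the order of arrays seen for Esm1. This order was not particular to tip cell genes. The medians of other ligands and receptors and of VEGF-induced genes had it too. Of these genes, 18 of 23 were below 0 on array 1, 18 on array 2, 12 on array 3 and 7 on array 4. With replicate 1 or 2 left out, 1 gene fell and 0 rose.

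Hypoxia and HIF target genes went both ways: 5 of 22 fell (11.7% of all probes), 4 rose (9.29%) and the other 13 did not pass. The median of the list was -0.07. Egln1, the oxygen sensor gene that marks HIF for decay, rose by 0.37 ± 0.06 (limma, adjusted p = 0.0032) and the mitophagy gene Bnip3 by 0.26 ± 0.09 (limma, adjusted p = 0.0123), although Bnip3 turned to -0.27 when median centring replaced loess, and other probes of it stood at -0.06 and 0.04. Epas1, which encodes an endothelial HIF subunit, fell by 0.23 ± 0.10 (limma, adjusted p = 0.0212). Ldha was counted as fallen at -0.17 on its brightest probe, but other probes of it stood at 0.26 and 0.19. Pgk1 was counted as fallen at -0.14 but stood at 0.06 with the scanner software's ratios. Both were chosen after their values were seen. The list's array medians were -0.13, 0.08, -0.01 and -0.02 and did not follow the order of Esm1. Without replicate 1, 0 fell and 2 rose, and without replicate 2, 1 fell and 1 rose.

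Of genes induced by VEGF in endothelium, 1 of 19 fell (11.7% of all probes), 1 rose (9.29%) and the other 17 did not pass. The median of the list was -0.08, with array medians of -0.24, -0.10, -0.02 and 0.04. The transcription factor gene Egr2 fell by 0.60 ± 0.47 (limma, adjusted p = 0.0330), and the tissue factor gene F3 rose by 0.20 ± 0.13 (limma, adjusted p = 0.0430), which turned to -0.17 with median centring. Nos3, the endothelial nitric oxide synthase gene, stood at -0.29 ± 0.25 and did not pass (limma, adjusted p = 0.0552), with another probe at 0.00. Without replicate 1 or without replicate 2, 0 genes of this list fell and 0 rose.

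By median ratio, some cell type markers were also lower on arrays 1 and 2 than on arrays 3 and 4. These were markers of endothelium, erythrocytes, neutrophils and, by a small margin on array 4, astrocytes. Their part in the result was not tested. Counts of markers that fell stand beside the 11.7% of all probes that passed as lower, and those that rose beside 9.29%. In bulk tissue, fewer cells of a type and less RNA per cell cannot be told apart. For 18 endothelial markers the array medians were -0.21, -0.11, 0.08 and 0.04, and 2 fell, 1 rose and 15 did not pass. Without replicate 1, with no replicate block or with the scanner software's ratios, 0 endothelial markers fell and 0 rose. Their summed level, on the linear scale of normalized intensity, was 66490, 77120, 92780 and 83640 in the knockout-labelled samples and 74540 to 87120 in the wild-type samples. For 7 globin and other erythrocyte genes, several of them near-identical copies that probes may not tell apart, the array medians were -0.29, -0.63, -0.13 and 0.19, and 1 fell and 6 did not pass. Their summed level was 86140, 79230, 114800 and 135100 in the knockout-labelled samples and 111100 to 135200 in the wild-type samples, so arrays 1 and 2 lay below the wild-type range. None of the 7 fell without replicate 1, 2 or 3, and 3 fell without replicate 4 (limma).

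For 10 neutrophil markers, S100a8 and S100a9 among them, the array medians were -0.22, -0.30, -0.11 and 0.04. Of these 2 fell and 8 did not pass, with 0 to 4 falling when 1 replicate was left out. The summed level was 56330, 47120, 57740 and 54620 in the knockout-labelled samples and 60950 to 70960 in the wild-type samples. Unlike the median, it was higher on array 1 than on array 4. Ly6g had no probe named here, and Ngp was on the array below the filter. For 12 neuronal markers the medians were 0.06, 0.04, 0.01 and 0.00, with 2 lower, 1 higher and 9 not passing (0 lower without replicate 1, 2 or 4), and summed levels of 303100 to 330100 and 312300 to 320000.

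Of 12 pericyte and smooth muscle markers 2 fell and 10 did not pass, with array medians of -0.03, -0.14, -0.07 and -0.15, and 0 fell without replicate 1, 2 or 4 or with the scanner software's ratios. Of 11 astrocyte markers 3 fell and 8 did not pass, with medians of -0.21, -0.18, -0.05 and -0.15, and of 10 microglial markers 5 fell and 5 did not pass, with medians of -0.10, -0.10, -0.09 and -0.22. When 1 replicate was left out, 3 astrocyte markers fell each time and 2 to 3 microglial ones did, and with the scanner software's ratios 2 and 1 did. Astrocyte markers had summed levels of 213900, 228000, 229400 and 204000 in the knockout-labelled samples, lowest on array 4. In the wild-type samples these were 250100 to 265400. For microglial markers the summed level was 103800 to 115100 in the knockout-labelled and 118300 to 131600 in the wild-type samples. For pericyte and smooth muscle markers it was 14430 to 15400 and 15170 to 16120, and for meningeal and choroid plexus markers 19260 to 25690 and 23390 to 27060. For 12 choroid plexus and meningeal markers the medians were -0.09, -0.12, 0.04 and -0.25, and 2 fell and 10 did not pass. Without replicate 1 or 2, or with the scanner software's ratios, 0 of these fell, without replicate 3, 5 fell, and without replicate 4, 2 fell and 1 rose.

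**Figure D5:**
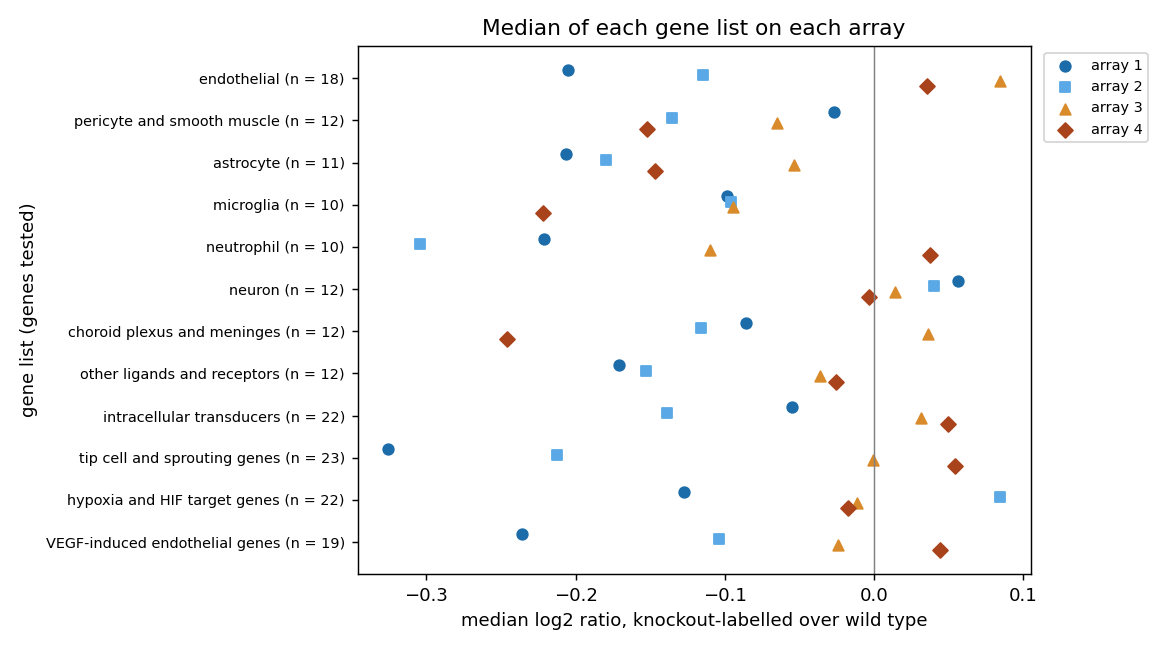
Median ratio (log2, knockout-labelled over wild type) of each gene list on each array, with the number of genes tested beside the list's name. Endothelial, neutrophil, astrocyte and tip cell lists are among those lower on arrays 1 and 2 than on arrays 3 and 4, while neuronal markers run from 0.06 on array 1 to 0.00 on array 4.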

How the data were processed

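Total RNA was hybridised; groups, dyes and replicate numbers came from the labels. Per the file headers, Agilent Feature Extraction 11.0.1.1 made the deposited files (the submitters' processing notes name 10.7.3.1). Spot and background signals are linear intensity values, per the file headers. The deposited log10 ratios are Cy5 over Cy3. On the log2 scale they departed from the ratio of processed signals by 0.73 at the spot that differed most. The deposited series matrix holds log2 values equal to log2 of processed Cy5 over Cy3 within 0.001 for all 39030 single-spot probes (column medians -0.05, -0.06, -0.04 and -0.03), hence wild type over knockout. The deposited flags are other values, 0 or 1.

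Median signals were corrected with normexp (offset 50) and normalized by loess within each array in limma 3.58.1 (R 4.3.3), with control spots left out, outlier spots (139 to 186 per array) removed and spots of a probe averaged. Probes well above background on at least 3 of 4 arrays in either channel were kept (30259 of 39429). Symbols came from RefSeq accessions of GRCm38.p6 (69.6% of probes). The array, which pairs 2 samples by design, is the block. Ratios were tested against 0 by limma's moderated test, with Benjamini-Hochberg adjustment over all kept probes. Levels are channel values after loess and Aquantile. For Aplnr, the dim channel was set, on each array, to its measured value or the dimmest value passing the background flag, whichever was higher. The measured value was the higher on every array, so nothing changed.

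The 10 genes and all lists were chosen with earlier results of these data known. Named beyond the 10 genes were up to 3 genes with the smallest adjusted p in each pathway list, the 10 genes most like Esm1 (passing over predicted and RIKEN names), and those said to be chosen later. In each list the brightest probe stood for a gene. 1 gene of the erythrocyte list is not reported here, and the list was used without it, a choice made after seeing the data. Simulated data were used to test the fit. Alternatives were other background corrections, median centring, the scanner software's ratios, the series matrix, other filters, an intensity trend, no block, 1 probe per gene and each replicate left out.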

Additional observations from a re-analysis of the deposited data

Results flagged for a closer look

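In 1 of 36 sets of 4 values examined (the ratio, the knockout-labelled level and the wild-type level of each of 12 probes), 1 array stood apart by Dixon's test for 4 samples at the 95% level, and chance alone gives about 1 in 20. The wild-type level of Flt1 was 12.48 on array 1 against 12.62 to 12.63 on the others, a ratio of gap to range of 0.893.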

How the results depend on the processing

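Of 166 values of the 12 probes under 14 alternatives, 155 moved by less than the SD over arrays, 11 moved by more, and none of the 3 probes past the threshold turned its direction. Other filters, the intensity trend, no block and 1 probe per gene leave a ratio as it was. Leaving out 1 of the 4 arrays cannot move a mean by the SD over arrays. Most of the 155 outcomes were thus fixed beforehand, and nothing is read from their number. Median centring in place of loess shifted the median of all probes from -0.01 to -0.16 and gave 15614 lower and 7883 higher probes (3527 and 2811 with loess) and 9 lower member probes in place of 3. It turned Flt1 to -0.30 and Kdr probe A_55_P2094469 to -0.27, both past the threshold as lower, Apln to -0.29, and Aplnr to 0.46, past it as higher. With a normexp offset of 16 Aplnr was past it as lower, at -0.21, and Esm1, at -1.21, was not past it. With the scanner software's log ratios 2028 probes were lower, with the series matrix 2027, and 1 member probe was lower in each, Angpt1. With no replicate block 1748 were lower and 1644 higher, with 2 member probes lower; there Esm1, at an unchanged -1.11, had no call. Leaving out 1 replicate gave 1356 to 2164 lower and 1064 to 1651 higher probes, fewest without replicate 2, and 0 to 3 lower member probes: 1 without replicate 1, 0 without replicate 2, 1 without replicate 3 and 3 without replicate 4. Median centring also raised the list counts, to 17 lower and 4 higher of 23 tip cell genes and 14 lower and 1 higher of 22 hypoxia genes, against 1 and 0, and 1 and 2, with the scanner software's ratios. The cause was not tested. The 4 arrays limit precision, and Aplnr is limited by its signal over background.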
